A study of Mus musculus with 17 samples.

Results

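The 44 genes described here are all rows of the deposited expression table, of 54658, whose symbol has the form of a collagen alpha chain (Col, a type number, a, a chain number). The rule used names only and no measured value, but it was chosen with earlier results of these data known. The table held RNA-seq of mouse fat and of fat-like implants, and 38 of the 44 chains passed the filter of at least 1 CPM (a gene's reads scaled to a common library total) in at least 2 of the 16 libraries. The 6 that did not pass, Col9a1, Col9a2, Col10a1, Col19a1, Col25a1 and Col26a1, reached at most 0.305 to 1.08 CPM. By class the genes were 11 fibrillar chains, 6 type IV chains of basement membranes, 3 network chains (types VIII and X), 9 fibril-associated chains (FACIT), 6 type VI chains, 2 multiplexins (types XV and XVIII), 4 transmembrane chains and 3 others (types VII, XXVI and XXVIII). The numbers that passed were, in that order, 11, 6, 2, 6, 6, 2, 3 and 2.

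Collagens are built from 3 polypeptide chains wound into a triple helix. Types I, III and V assemble into the banded fibrils of connective tissue, with type I as the main fibril former, type III in compliant tissues and type V as the regulator of fibril diameter. Type IV forms the sheet-like network of basement membranes, type VI forms beaded microfibrils, and FACIT collagens sit on the surface of fibrils. In fat, each adipocyte is wrapped in a basement membrane, and fibroblasts and adipocyte progenitors lay down the fibrils between the cells.

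Mouse embryonic fibroblasts (MEF) from wildtype (WT) pups or from pups lacking leptin (KO) had been injected under the skin over the sternum of LD hosts (an abbreviation that the labels leave unexplained) of 3 to 5 weeks, where they formed fat-like tissue. The WT implants came from hosts coded as male (MWM) and female (MWF), the KO implants from hosts coded as male (MKM) and female (MKF), and all these animals had knee surgery (destabilization of the medial meniscus) at 16 weeks. Endogenous fat was visceral with surgery at 16 weeks (EVM), visceral without surgery (EVFN) or visceral under a code that is not spelled out (EVFY). Subcutaneous fat came from males with surgery at 16 weeks (ESM). Which mice gave the endogenous fat is not stated. Implants and fat were all collected at 28 weeks. Each code had 2 libraries. A 17th labelled sample (ESF) was not analysed here. The series' design text calls the hosts male, although codes with F are described as female. The knockout allele, any pooling of pups and whether the 2 libraries of a code came from separate animals are not stated, and p-values therefore rest on variation among these libraries alone, part or all of which may be technical.

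Several labels did not match the data. The tissue is labelled as sensory ganglion, but 8 adipocyte markers summed to 9919 to 34096 CPM and 11 sensory neuron markers to 7.39 to 71.7 CPM in all 16 libraries. The library labelled MKM1 was nearest to a visceral library (r = 0.989 over genes with EVFY1, 0.891 with its own partner). The library labelled EVFN1 was nearest to a KO implant (r = 0.984 with MKF1, 0.906 with its partner). Both are given singly and enter no mean and no test unless stated. Leptin reads (Lep) did not tell the implants apart: 1888 and 2675 CPM in MWM, 806 and 1019 in MWF, 1336 in MKM2 and 1644 and 1726 in MKF; a gene-level count does not test an allele that leaves the transcript in place. Both MWM libraries had Xist, the X-inactivation RNA of females, at 493.9 and 466.1 CPM with the Y-linked Ddx3y at 13.1 and 17.3 CPM, so male and female are used below only as the codes give them. The library labelled MKM1, coded male, had 351.9 CPM of Xist and 0 of Ddx3y. That labelled EVFN1 had 278.1 and 29.35 CPM, and MKM2 had 3.77 and 80.6 CPM. Depth ran from 16444965 to 25805502 reads, which makes a single read 0.0388 to 0.0608 CPM.

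The promoters of 4 chains that the results turn on are shown because their levels differed in pattern: Col3a1 was higher in KO than in WT implants, Col4a6 was higher in each visceral library than in the other sets, Col6a5 stood highest in EVM, and Col11a2 stood highest in MWF. Each is the 250 bases before the RefSeq start site (build GRCm38.p6), 5′ to 3′ on the gene's strand, with capitals marking a TATA box (TATAAA) or a GC box (GGGCGG, or CCGCCC where it lies on the opposite strand). Col3a1 is on the plus strand at chr1:45311288-45311537, Col4a6 on the minus strand at chrX:141474077-141474326, Col6a5 on the minus strand at chr9:105960644-105960893 and Col11a2 on the plus strand at chr17:34038888-34039137.
Col3a1: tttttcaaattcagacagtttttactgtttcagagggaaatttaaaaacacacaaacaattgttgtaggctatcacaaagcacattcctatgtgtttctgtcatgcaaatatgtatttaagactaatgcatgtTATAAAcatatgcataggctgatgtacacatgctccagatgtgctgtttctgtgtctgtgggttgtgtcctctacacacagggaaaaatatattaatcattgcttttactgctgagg
Col4a6: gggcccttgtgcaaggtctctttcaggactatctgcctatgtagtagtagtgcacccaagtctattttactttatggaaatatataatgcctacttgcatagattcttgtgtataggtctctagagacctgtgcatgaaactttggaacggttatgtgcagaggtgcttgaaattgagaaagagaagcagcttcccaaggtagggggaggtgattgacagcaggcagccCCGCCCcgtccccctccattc
Col6a5: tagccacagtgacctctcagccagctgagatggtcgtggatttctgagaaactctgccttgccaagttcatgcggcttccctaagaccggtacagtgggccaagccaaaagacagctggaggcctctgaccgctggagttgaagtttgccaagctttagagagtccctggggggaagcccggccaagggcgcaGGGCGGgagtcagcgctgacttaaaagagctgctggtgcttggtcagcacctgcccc
Col11a2: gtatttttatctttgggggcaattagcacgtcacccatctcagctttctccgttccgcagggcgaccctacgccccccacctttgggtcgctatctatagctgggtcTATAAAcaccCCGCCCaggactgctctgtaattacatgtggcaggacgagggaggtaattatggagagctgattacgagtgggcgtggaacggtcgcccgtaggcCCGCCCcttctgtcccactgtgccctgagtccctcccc
The Col3a1 window held a TATAAA beginning 117 bases before the start and no GC box. The Col4a6 window held 1 GC box, on the opposite strand 21 bases before the start, and the Col6a5 window 1 GC box, on the same strand 57 bases before it. The Col11a2 window held both a TATAAA, 143 bases before the start, and 2 GC boxes, 133 and 38 bases before it. Over the 38 windows listed for 35 of the 44 chains, 22 held a GC box, 13 a CCAAT box (CCAAT, either strand) and 5 a TATAAA, beside 32.7%, 33.8% and 12.4% of 32817 promoter windows of that length. A match of these letters is a description and not a binding site.

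Collagen chain transcripts made up 1.26% to 3.66% of the reads in the 14 libraries that entered means. Summed over the 44 genes, the 3 KO implants stood at 32154 ± 3894 CPM (SD, n = 3), the 4 WT implants at 18891 ± 5434 (SD, n = 4), the 5 visceral libraries at 19532 ± 5418 (SD, n = 5) and the 2 subcutaneous libraries at 23318 ± 1708 (SD, n = 2). The lowest KO implant (29646 CPM) was above the highest library of each other set (26045 CPM, in EVFY2). The library labelled MKM1 had 15251 CPM and that labelled EVFN1 28569 CPM. Fibrillar chains were 58.1% ± 1.39 of collagen reads in KO implants and 48.6% ± 2.17 in WT implants, 45.99% ± 6.83 in visceral and 57.6% ± 4.03 in subcutaneous fat (SD). The type IV shares, in the same order, were 21.6% ± 1.11, 26.5% ± 1.30, 28.8% ± 8.13 and 23.4% ± 3.35 (SD). EVFY2 stood apart within visceral fat, with 57.6% fibrillar and 15.9% type IV, where the other 4 visceral libraries had 39.7% to 45.4% fibrillar. It also had the highest sums of fibroblast and progenitor markers (4490 CPM) and of mural and smooth muscle markers (8911 CPM). The part of these cells was not tested. Fewer collagen-making cells and less collagen RNA per cell cannot be told apart in such bulk samples.

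**Figure D1:**
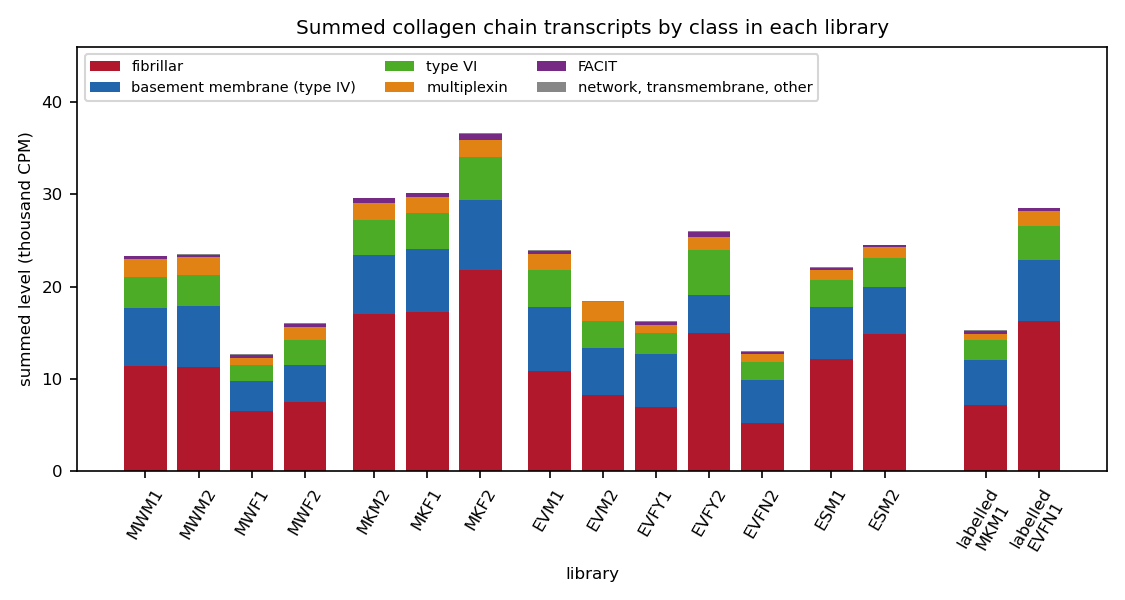
Summed CPM of the collagen chains in each library (vertical axis), stacked by class; the 2 bars at the right are the libraries labelled MKM1 and EVFN1. The 3 KO implants (29646 to 36641 CPM) are the tallest of the 14 bars to the left.

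A few chains made up most of these reads. Per kilobase of exon, the highest medians over the 14 libraries were Col4a1 (480 CPM per kb), Col3a1 (437), Col1a1 (329), Col4a2 (311), Col6a1 (241) and Col1a2 (202). Exon length was the union of all annotated exons of a gene, so these ranks depend on the annotation. Col15a1 (159), Col5a3 (143) and Col6a2 (129) came next, while Col4a5 had a median of 4.37 CPM per kb. Col1a1, Col1a2 and Col3a1 together carried 49.99% ± 1.77 of all collagen reads in KO implants and 38.9% ± 2.91 in WT implants (SD).

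KO implants were compared with WT implants to see whether collagen transcripts differ with the leptin genotype of the implanted cells. Type III collagen, which forms thin compliant fibrils, had the smallest adjusted p of the chains. Col3a1 (chr1:45311538-45349706, plus strand) stood at 4221 and 4214 CPM in MWM, 2318 and 2161 in MWF, 7109.9 in MKM2 and 7795 and 9697 in MKF. Every KO library lay above every WT library, and the difference was 1.36 ± 0.28 (SE), adjusted p = 0.0180, on the log2(CPM + 0.5) scale (limma, Benjamini-Hochberg over all genes tested). Col5a2, its neighbour on chromosome 1 and the second chain of type V collagen, stood at 603 and 652 CPM in MWM, 320.3 and 376 in MWF, 722 in MKM2 and 739 and 908 in MKF. It was also higher in KO implants (0.72 ± 0.19 (SE), adjusted p = 0.0432), again without overlap. Col6a5, a chain that can stand in for the third chain of type VI, was higher as well (1.72 ± 0.42 (SE), adjusted p = 0.0350). It stood at 18.0 and 15.1 CPM in MWM, 3.40 and 5.84 in MWF, 50.05 in MKM2 and 16.3 and 18.9 in MKF, and MKF1 overlapped MWM1. These 3 of 38 tested chains (7.9%) were called higher and none lower, beside 6.67% of all 17964 genes called higher and 4.1% lower (10.8% in either direction), so the number of calls was near that over all genes. The median over the 38 chains was 0.40, and over all genes -0.06.

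The type I chains, the body of most fibrils, did not pass the test in this comparison. Col1a1 was at 2452 and 2129.9 CPM in MWM, 1670.1 and 2069 in MWF, 3934 in MKM2 and 3642 and 4813 in MKF, without overlap, and its log2 difference of 0.98 ± 0.37 (SE) had an adjusted p of 0.128 (limma). Col1a2 was at 2374 and 2501 CPM in MWM, 1445 and 1572 in MWF, 3586 in MKM2 and 3236 and 4536 in MKF (0.95 ± 0.31, adjusted p = 0.0868). Col5a1, the chain shared by most type V molecules, was at 657 and 709 CPM in MWM, 393 and 501 in MWF, 711 in MKM2 and 697 and 868 in MKF and overlapped (0.43 ± 0.18, adjusted p = 0.166). In each of these 3 genes both MWF libraries lay below both MWM libraries. The library labelled MKM1 lay with the lower libraries (Col3a1 2716, Col1a1 1312, Col1a2 1809 CPM). With the libraries labelled MKM1 and EVFN1 included as labelled, no collagen chain was called in this comparison (9 of 38 at an unadjusted p under 0.05, as were 22.6% of all genes; 1.72% of all genes called), and the adjusted p of Col3a1 was 0.222, of Col5a2 0.317 and of Col6a5 0.0570 (limma, all 16 libraries). By contrast, edgeR on the 14 libraries called the same 3 (9.76% of all genes).

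**Figure D2:**
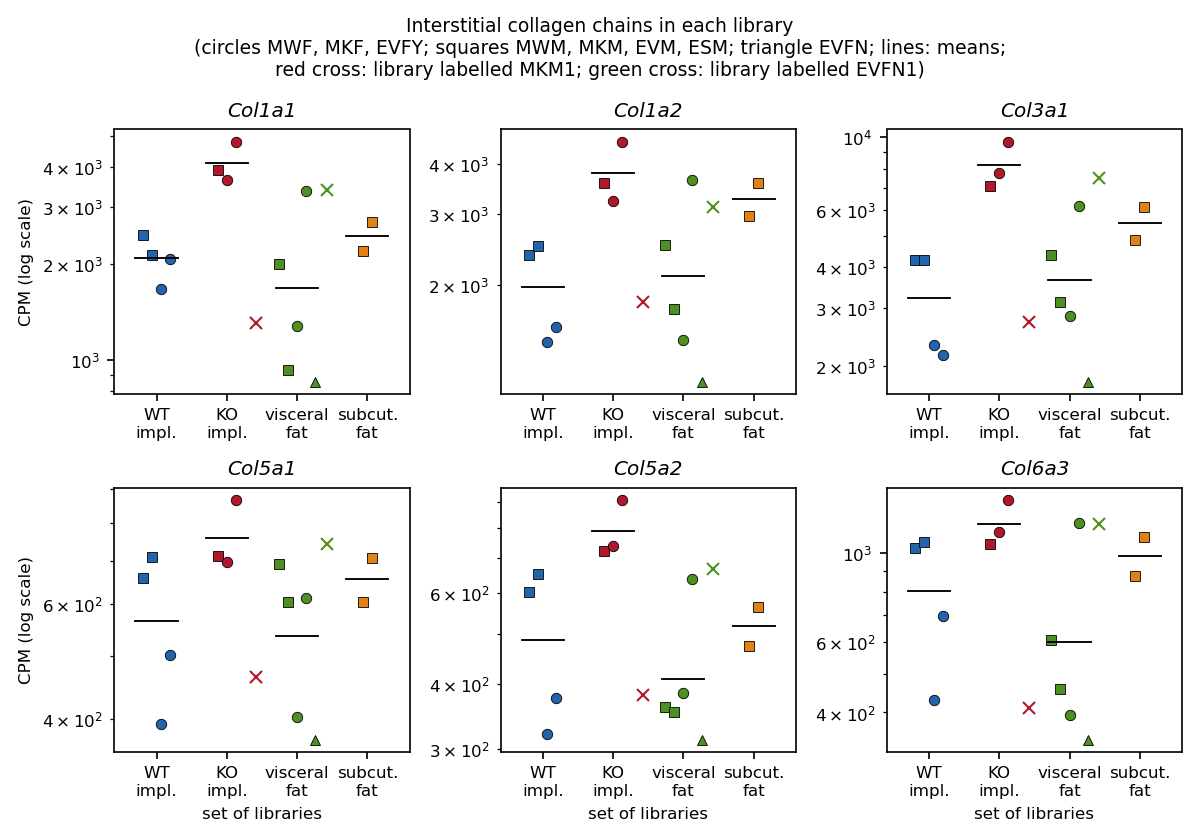
CPM of 6 interstitial collagen chains in every library (vertical axes, log scale) by set of libraries (horizontal axes); each point is a library, lines are means, and crosses are the libraries labelled MKM1 (red) and EVFN1 (green). The KO implants lie above all WT implants for Col1a1, Col1a2, Col3a1 and Col5a2, and the red crosses lie below the KO points.

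The call on Col3a1 was kept when any 1 of 11 of the 14 libraries was left out and lost without MKF2, MWM1 or MWM2, with differences from 1.28 to 1.501 and adjusted p up to 0.0665. The calls on Col5a2 and Col6a5 were kept without any 1 of 6 of the 14 libraries. They were lost for Col5a2 without any 1 of 8 libraries (all of the 14 but ESM1, ESM2, EVFN2, EVFY1, EVFY2 and MKM2; adjusted p up to 0.1296) and Col6a5 without any 1 of 8 libraries (all of the 14 but ESM1, ESM2, EVFN2, EVM1, EVM2 and MWF2; adjusted p up to 0.2002). Without MKM2, the KO library with the highest Col6a5, the difference in Col6a5 was 0.97. That setting holds no MKM library, so it compares MKF alone with WT implants.

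Apart from Col6a5, no chain outside the fibrillar class was called between KO and WT implants. The type IV pair of every basement membrane, Col4a1 and Col4a2, overlapped, with 3751 and 3931 CPM in MWM, 1899 and 2356 in MWF, 3713 in MKM2 and 3977 and 4390.4 in MKF for Col4a1. Col4a2 was at 2529 and 2615 CPM in MWM, 1327 and 1645 in MWF, 2613 in MKM2 and 2849.8 and 3097 in MKF. Their adjusted p was 0.128 and 0.143 (limma). Col6a1, a core chain of type VI, was at 1110.2 and 1147 CPM in MWM, 615 and 955 in MWF, 1307 in MKM2 and 1344 and 1579 in MKF (adjusted p = 0.173). Col6a3, the longest of the core chains, was at 1031 and 1068 CPM in MWM, 429 and 697 in MWF, 1050.4 in MKM2 and 1127 and 1359 in MKF. The KO libraries MKM2 and MKF1 lay among or near the MWM libraries for Col4a1 and Col6a3. Of the FACIT chains of tendon and fascia, Col12a1 was at 69.9 and 59.1 CPM in MWM, 58.6 and 60.9 in MWF, 121 in MKM2 and 86.3 and 179.6 in MKF. Col14a1 was at 86.6 and 56.0 CPM in MWM, 173 and 114 in MWF, 224 in MKM2 and 106 and 324 in MKF. Col12a1 was higher in every KO than in every WT library, while Col14a1 overlapped. The multiplexin Col18a1, whose end is cut off as endostatin, was at 768 and 789 CPM in MWM, 270.2 and 444 in MWF, 787 in MKM2 and 654 and 694 in MKF and overlapped (adjusted p = 0.0993). Col15a1, its relative of muscle and vessel basement membranes, was at 1156 and 1178 CPM in MWM, 449 and 1004 in MWF, 994 in MKM2 and 1094 and 1102 in MKF. The network chain Col8a1 of vessel walls was at 19.7 and 11.5 CPM in MWM, 16.1 and 23.3 in MWF, 30.2 in MKM2 and 29.5 and 34.9 in MKF. Of these last 2 chains, Col15a1 overlapped and Col8a1 did not.

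Macrophage markers moved with the same contrast, in which 6.67% of all genes were called higher and 4.1% lower. All 6 (Adgre1, Cd68, Csf1r, Mrc1, Trem2 and Gpnmb) were higher in KO implants, and their sum was 4165 to 4862 CPM there against 498 to 944 CPM in WT implants and 855 CPM in the library labelled MKM1, with none at 0. Lung epithelium markers went the other way, with 5 of 6 lower and sums of 13.4 to 29.3 against 124 to 518 CPM. Skeletal muscle markers summed to 55.3 to 2257 CPM in KO and 2820 to 38256 CPM in WT implants, with none of the 6 called. Fibroblast and progenitor markers (9 genes) overlapped, with sums of 1659 to 2526 CPM in KO and 1786 to 2226 CPM in WT implants. They summed to 1895 to 4490 CPM in visceral and 3027 to 3343 CPM in subcutaneous fat. The part of these cells in the collagen differences was not tested.

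Some genes that make, trim and break collagen were also higher in KO implants. Over all genes, 6.67% were called higher and 4.1% lower between KO and WT implants. Of 20 genes for chain modification and folding, 4 were higher and none lower: Colgalt1, which puts galactose on hydroxylysine, Plod1, a lysyl hydroxylase, Fkbp10, a collagen chaperone, and P3h1, a prolyl hydroxylase. Colgalt1 stood at 143 and 117 CPM in MWM, 119 and 129 in MWF, 247 in MKM2 and 252 and 270.3 in MKF, with no overlap (1.00 ± 0.11 (SE), adjusted p = 0.000920). Plod1 followed with 0.69 ± 0.12 (SE), adjusted p = 0.01003. Serpinh1, the collagen-specific chaperone HSP47, was at 834 and 784 CPM in MWM, 379 and 564 in MWF, 417 in MKM2 and 443 and 517 in MKF, with the MWM libraries above the KO libraries. Of 7 tested propeptide-cleavage genes 1 was higher, Adamts14, which removes the amino end of fibrillar procollagens, at 8.83 and 7.51 CPM in MWM, 6.48 and 6.38 in MWF, 24.9 in MKM2 and 21.5 and 26.7 in MKF (1.69 ± 0.19 (SE), adjusted p = 0.00122). Of 5 lysyl oxidases, which crosslink fibrils, 2 were higher, Loxl3 (0.97 ± 0.24 (SE), adjusted p = 0.0353) and Loxl2 (0.83 ± 0.22 (SE), adjusted p = 0.0469).

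Beside the same 6.67% of all genes higher and 4.1% lower, 5 of 10 collagen-degradation genes were higher and 1 lower (Mmp9). The higher ones were Ctsk, Mmp13, Mmp2, Mmp14 and the protease inhibitor Timp2. The list also holds the inhibitors Timp1 and Timp3, so its counts are not a measure of breakdown. Among the 14 libraries Mmp13 reached 1 CPM only in KO implants (0.966 to 1.29 CPM, against at most 0.423 in WT implants). It thus met the filter through the side where it was called higher. Ctsk, a cathepsin that cuts the triple helix, stood at 84.8 and 89.3 CPM in MWM, 33.0 and 41.9 in MWF, 296 in MKM2 and 222 and 330.0 in MKF (2.30 ± 0.27 (SE), adjusted p = 0.00146). Mmp9, a gelatinase, stood at 10.3 and 17.8 CPM in MWM, 35.0 and 24.4 in MWF, 5.75 in MKM2 and 5.80 and 7.04 in MKF (-1.64 ± 0.23 (SE), adjusted p = 0.00344). Of 10 tested collagen receptors 1 was higher, Lair1, an inhibitory receptor of leukocytes, at 5.40 and 3.11 CPM in MWM, 6.85 and 11.1 in MWF, 43.0 in MKM2 and 40.1 and 40.3 in MKF (2.69 ± 0.31 (SE), adjusted p = 0.00127). Of 10 fibril partners Postn, periostin, was higher (2.08 ± 0.49 (SE), adjusted p = 0.0296), and of 10 basement membrane partners Lama2 was (0.95 ± 0.16 (SE), adjusted p = 0.00689). These counts of 1 in 10 were near the share over all genes. The calls on Colgalt1 and Adamts14 were kept without any 1 of the 14 libraries, and with all 16 libraries their adjusted p was 0.207 and 0.121 (limma). The macrophage values above moved with these genes too, and their part was not tested.

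KO implants and visceral fat differed in more chains than KO and WT implants. Of the 38 chains, 10 (26.3%) were higher in KO implants and 3 (7.9%) lower, beside 16.3% of all genes higher and 8.24% lower (24.6% in either direction; limma). All 11 fibrillar chains had a positive difference and 7 were called: Col1a1, Col1a2, Col3a1, Col5a1, Col5a2, Col11a2 and Col27a1. The median fibrillar difference was 1.01 on the log2 scale, over the 38 chains 0.43 and over all genes 0.08. Col5a2 in visceral fat was at 362 and 353 CPM in EVM, 385 and 637 in EVFY and 312 in EVFN2, below every KO implant (1.01 ± 0.18 (SE), adjusted p = 0.00495). Col3a1 there was at 4355 and 3142 CPM in EVM, 2833 and 6171 in EVFY and 1792 in EVFN2 (1.38 ± 0.27 (SE), adjusted p = 0.00746). Col1a1 was at 1998 and 933 CPM in EVM, 1278 and 3362 in EVFY and 858 in EVFN2 (1.59 ± 0.37 (SE), adjusted p = 0.0142). No visceral library reached the lowest KO implant in these 3 genes; the nearest was EVFY2. Col27a1, a fibrillar chain of cartilage, was at 12.2 and 10.2 CPM in EVM, 12.8 and 24.7 in EVFY and 11.6 in EVFN2 against 42.4 CPM in MKM2 and 27.3 and 26.7 in MKF (1.32 ± 0.27 (SE), adjusted p = 0.00871).

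Outside the fibrillar class, Col12a1, Col6a3 and Col18a1 were higher in KO implants than in visceral fat. Col12a1 showed the widest difference, with 78.2 and 9.38 CPM in EVM, 16.5 and 28.9 in EVFY and 15.4 in EVFN2 (2.52 ± 0.62 (SE), adjusted p = 0.0188). Col18a1 was at 684 and 685 CPM in EVM, 333 and 364 in EVFY and 319 in EVFN2 (0.78 ± 0.16 (SE), adjusted p = 0.00993), where EVM1 and EVM2 overlapped MKF1. Col6a3 was at 607 and 459 CPM in EVM, 395 and 1189 in EVFY and 342 in EVFN2 (1.19 ± 0.35 (SE), adjusted p = 0.0378), with EVFY2 among the KO libraries. The calls on Col18a1, Col1a1, Col27a1, Col3a1, Col4a6 and Col5a2 were kept without any 1 of the 14 libraries, those on Col1a2, Col5a1 and Col6a3 in 8, 7 and 6 of 14. Calls were lost for Col1a2 without EVFN2, EVM2, MKF1, MKF2, MWM1 or MWM2 (adjusted p up to 0.127) and for Col5a1 without EVFN2, EVFY1, EVM2, MKF1, MKF2, MWM1 or MWM2 (adjusted p up to 0.172). They were lost for Col6a3 without any 1 of 8 libraries (all of the 14 but EVFY1, EVFY2, EVM1, MKM2, MWF1 and MWF2; adjusted p up to 0.106). The same held for Col11a2 without MKM2 (adjusted p up to 0.0521) and for Col12a1 without MKF2 (adjusted p up to 0.0589). With all 16 libraries as labelled, no gene of the whole table was called in this comparison (8 of 38 chains at an unadjusted p under 0.05, as were 11.6% of all genes), while edgeR on the 14 libraries called 14 chains (24.9% of all genes). Macrophage markers moved here as well, 6 of 6 higher, with sums of 552 to 1932 CPM in visceral fat, and mesothelial markers were lower, 6 of 6. Adipocyte markers were lower in 4 of 8 genes, with sums of 14974 to 18281 CPM in KO implants and 21471 to 34096 CPM in visceral fat, and none at 0. The part of these cells was not tested.

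**Figure D3:**
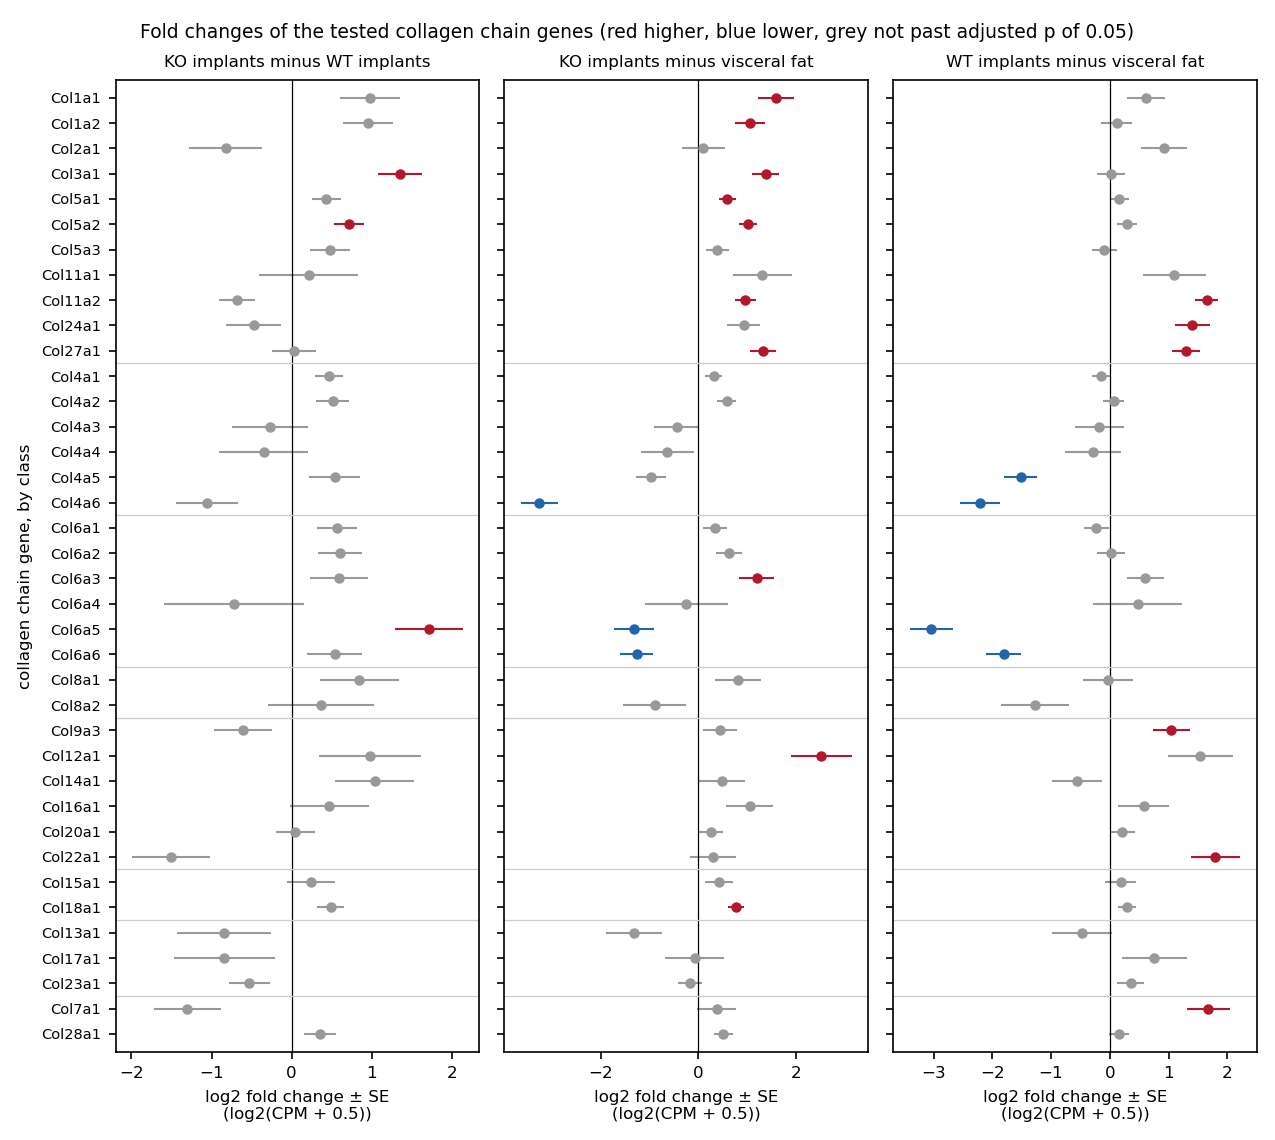
Log2 fold changes with their standard errors (horizontal axes) of the 38 tested chains (rows, by class) in 3 comparisons; red was called higher, blue lower and grey not called. Fibrillar chains at the top are red mostly between KO implants and visceral fat, and Col4a6, Col6a5 and Col6a6 are blue in both comparisons with visceral fat.

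Some enzyme genes also differed between KO implants and visceral fat, beside 16.3% of all genes higher and 8.24% lower in KO implants. Of 20 modification genes 6 were higher in KO implants than in visceral fat (Colgalt1 1.19 ± 0.10 first) and 1 lower, Colgalt2. Of 10 degradation genes, inhibitors included, 6 were higher and 1 lower, led by Ctsk (3.19 ± 0.27 (SE), limma adjusted p = 0.000154). Ctsk was at 70.9 and 41.5 CPM in EVM, 20.9 and 41.1 in EVFY and 17.9 in EVFN2. Comp, a protein that binds fibrils in cartilage and tendon, was at 5.92 and 1.67 CPM in EVM, 1.66 and 4.33 in EVFY and 1.90 in EVFN2, against 56.1 and 24.7 CPM in MWM, 27.7 and 49.98 in MWF, 107 in MKM2 and 96.1 and 84.6 in MKF (5.01 ± 0.48 (SE), adjusted p = 0.000255). Of 10 basement membrane partners 4 were lower (Lama4, Lamb1, Lamb2 and Nid1). In log2 differences, propeptide cleavage had 3 higher (Adamts14 1.44, Pcolce 1.91, Bmp1 0.76) and 1 lower (Adamts3 -1.14) of 7. Receptors had 2 higher (Lair1 3.17, Mrc2 2.496) and 1 lower (Ddr1 -1.10) of 10. Fibril partners had 2 higher (Comp 5.01, Bgn 1.35) and 0 lower of 10. No crosslinking gene was called by limma or edgeR, with none of 5 at an unadjusted p under 0.05.

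WT implants and visceral fat differed mainly in scarce chains. Of 38 chains 6 (15.8%) were higher in WT implants and 4 (10.5%) lower, beside 15.8% and 6.45% of all genes (22.3% in either direction; limma), so the share of higher calls equalled that over all genes. By edgeR 9 chains were called (21.4% of all genes). The main type I, III and V chains overlapped: WT implants held Col1a1 at 2080.2 ± 321 CPM (SD, n = 4) and visceral fat at 1686 ± 1039.8 CPM (SD, n = 5), and Col3a1 at 3229 ± 1144 CPM (SD, n = 4) and 3658 ± 1676 CPM (SD, n = 5). Higher in WT implants were the fibrillar Col11a2, Col24a1 and Col27a1, the FACIT chains Col9a3 and Col22a1, and Col7a1, the anchoring fibril of skin. Col9a3 was at 1.27 and 0.791 CPM in MWM, 1.12 and 3.41 in MWF and 0.223 to 0.713 CPM in visceral fat. Both FACIT chains passed the filter of 1 CPM in 2 libraries only because of the WT implants. Their calls are therefore not independent of that filter. Col11a2, a type XI chain best known from cartilage, was at 3.48 and 2.32 CPM in MWM, 10.1 and 11.3 in MWF, 3.82 in MKM2 and 3.48 and 2.32 in MKF, against 1.06 and 0.736 CPM in EVM, 1.91 and 1.53 in EVFY and 1.90 in EVFN2 (1.65 ± 0.19 (SE), adjusted p = 0.00103). Col22a1, found at muscle-tendon junctions, was at 3.38 and 1.07 CPM in MWM, 4.04 and 1.09 in MWF, 0.458 in MKM2 and 0.483 and 0.258 in MKF against 0.670 and 0.310 CPM in EVM, 0.251 and 0.1096 in EVFY and 0.119 in EVFN2 (1.80 ± 0.43 (SE), adjusted p = 0.0194). Col7a1 was at 5.22 and 7.51 CPM in MWM, 4.94 and 5.47 in MWF, 1.93 in MKM2 and 1.98 and 2.23 in MKF against 2.46 and 0.620 CPM in EVM, 1.96 and 3.62 in EVFY and 0.772 in EVFN2 (1.67 ± 0.36 (SE), adjusted p = 0.0138). No WT implant overlapped visceral fat for these 3 genes.

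The WT implants carried markers of other tissues in the same libraries. Lung epithelium markers summed to 124 to 518 CPM there and 0.736 to 4.46 CPM in visceral fat, where Sftpc and Sftpa1 were at 0. Skeletal muscle markers summed to 2820 to 38256 against 24.9 to 741 CPM (2 of 6 higher), and keratinocyte markers to 8.36 to 58.4 against 2.06 to 8.14 CPM (1 of 5 tested higher). Chondrocyte markers summed to 43.3 to 77.7 against 5.13 to 52.0 CPM (2 of 4 tested higher), and to 90.4 to 118 CPM in KO implants. Most of that sum in WT implants was Comp (mean 39.6 CPM), also counted here as a fibril partner. Of the 8 genes, 5 were under 1 CPM in all WT implants, and Cnmd went the other way (mean 0.324 against 0.885 CPM). The part of these tissues in Col11a2, Col22a1, Col24a1, Col27a1, Col7a1 and Col9a3 was not tested. Calls were lost for Col22a1 without MWF1 or MWM1 (adjusted p up to 0.0763) and Col24a1 without MWM2 (adjusted p up to 0.0509). They were lost for Col7a1 without MWM2 (adjusted p up to 0.0548) and Col9a3 without any 1 of 10 libraries (all of the 14 but EVFY2, EVM2, MKM2 and MWF1; adjusted p up to 0.143). The call on Col9a3 was not made with edgeR, and with all 16 libraries Col24a1, Col27a1 and Col4a6 were no longer called (9.66% of all genes called; adjusted p = 0.0865, 0.0767 and 0.0503; limma).

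Beside 15.8% of all genes higher and 6.45% lower in WT implants than in visceral fat, basement membrane partners were lower in 6 of 10. These were Lama2, Lama4, Lamb1, Lamb2, Lamc1 and Nid1. Adipocyte markers were lower too, in 6 of 8 genes, with sums of 9919 to 22726 CPM in WT implants and 21471 to 34096 CPM in visceral fat, and their part was not tested. Lama2, the laminin chain of muscle and nerve, was at 67.5 and 82.9 CPM in MWM, 62.2 and 57.5 in MWF, 127 in MKM2 and 109 and 159.6 in MKF against 155 and 159 CPM in EVM, 151 and 186 in EVFY and 139 in EVFN2 (-1.20 ± 0.14 (SE), adjusted p = 0.000901). Nid1, which links laminin to type IV collagen, was at 897 and 1013 CPM in MWM, 703 and 756 in MWF, 951 in MKM2 and 985 and 1186 in MKF against 1449 and 1423 CPM in EVM, 1797 and 1499 in EVFY and 1649.7 in EVFN2 (-0.92 ± 0.14 (SE), adjusted p = 0.00316). The chains Col4a1 and Col4a2 themselves overlapped between these sets. Of the other lists, 1 of 20 modification genes was lower (P3h4), no crosslinking gene was called by limma (2 of 5 at an unadjusted p under 0.05; edgeR called 1 lower), and Comp was higher among the 10 fibril partners (3.62 ± 0.42 (SE), adjusted p = 0.00101). In log2 differences, the fibril partners had 1 higher (Comp 3.62) and 3 lower (Dcn -0.70, Thbs2 -0.90, Fmod -1.14) of 10. Propeptide cleavage had 1 higher (Pcolce 1.33) and 1 lower (Adamts3 -1.06) of 7. Receptors had 2 higher (Itga2 1.04, Mrc2 1.51) and 1 lower (Ddr2 -0.65) of 10. Degradation had 2 higher (Fap 0.79, Ctsk 0.89) and 2 lower (Mmp9 -1.04 and the inhibitor Timp2 -0.63) of 10.

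Some basement membrane and type VI chains were called higher in visceral fat than in WT implants. Of these, Col4a6 alone was higher in every visceral library than in all others of the 14. Col4a5 and Col4a6, the neighbouring X-linked chains of specialised basement membranes (chrX:141475385-141689234 and chrX:141165403-141474076), were higher there than in WT implants. Col4a6 was at 39.1 and 27.0 CPM in EVM, 18.6 and 40.7 in EVFY and 13.96 in EVFN2, at 1.93 and 2.16 CPM in ESM and at 3.99 and 4.46 CPM in MWM, 3.40 and 7.54 in MWF, 3.61 in MKM2 and 0.531 and 1.63 in MKF. Every visceral library was above every other of the 14. Its difference was -2.21 ± 0.34 (SE), adjusted p = 0.00305 for WT implants minus visceral fat, -3.27 ± 0.38 (SE), adjusted p = 0.000581 for KO implants minus visceral fat and 3.22 ± 0.41 (SE), adjusted p = 0.00768 for visceral minus subcutaneous fat. Col4a5 was at 118 and 80.7 CPM in EVM, 40.6 and 90.8 in EVFY and 29.8 in EVFN2, at 28.9 and 27.8 CPM in ESM and at 22.0 and 37.2 CPM in MWM, 9.93 and 17.0 in MWF, 30.3 in MKM2 and 26.1 and 26.8 in MKF, with EVFN2 among the other sets. It passed against WT implants only (implants minus visceral -1.52 ± 0.28 (SE), adjusted p = 0.00725; against KO implants adjusted p = 0.0517, against subcutaneous fat 0.365). Col4a6 was at 22.9 CPM in MKM1 as labelled, and 3.48 CPM in EVFN1 as labelled. Its call against subcutaneous fat was lost without ESM1 or ESM2 (adjusted p up to 0.0864), and with all 16 libraries (0.323% of all genes called between the depots) its adjusted p was 0.391 against KO implants and 0.176 against subcutaneous fat. The annotation places 2 genes on the opposite strand of Col4a6 and 1 on that of Col4a5, and the strand setting of the counting is not given in the sources used here, so reads of such partners cannot be told apart.

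Col6a5 and Col6a6, which lie 27917 bases apart on chromosome 9, were highest in EVM. Col6a5 (chr9:105856078-105960643) was at 686 and 446 CPM in EVM, 39.1 and 30.2 in EVFY and 21.7 in EVFN2 and at 4.25 and 17.5 CPM in ESM. The 2 EVM libraries were far above every other library, none of which passed 50.05 CPM. The EVFY libraries and EVFN2 lay inside the range of the KO implants (16.3 to 50.05 CPM). Visceral fat was higher than WT implants (implants minus visceral -3.04 ± 0.37 (SE), adjusted p = 0.00114), than KO implants (implants minus visceral -1.32 ± 0.41 (SE), adjusted p = 0.0465) and than subcutaneous fat (visceral minus subcutaneous 3.02 ± 0.45 (SE), adjusted p = 0.0167), the last not with edgeR (1 chain and 1.05% of all genes called; adjusted p = 0.0619). The difference from subcutaneous fat was called without any 1 of the 14 libraries, at 2.06 without ESM1, 3.99 without ESM2 and 3.91 without EVFN2. The call against KO implants was kept in 4 of 14 such settings. Calls against KO implants were lost for Col6a5 without any 1 of 10 libraries (all of the 14 but ESM1, ESM2, EVFN2 and MKM2; adjusted p up to 0.113) and Col6a6 without EVFY2, EVM2 or MKF1 (adjusted p up to 0.0815). Col6a6 was at 122 and 169.6 CPM in EVM, 40.9 and 55.3 in EVFY and 21.7 in EVFN2, at 13.7 and 37.8 CPM in ESM and at 20.6 and 21.9 CPM in MWM, 11.8 and 8.88 in MWF, 26.3 in MKM2 and 13.6 and 23.6 in MKF (WT implants minus visceral -1.81 ± 0.30 (SE), adjusted p = 0.00481; KO implants minus visceral -1.27 ± 0.34 (SE), adjusted p = 0.0262). EVM libraries had Xist at 0.223 and 0.194 CPM and the other visceral libraries at 273 to 644 CPM, so sex-linked reads and the code cannot be told apart; EVM was not tested against EVFY or EVFN.

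**Figure D4:**
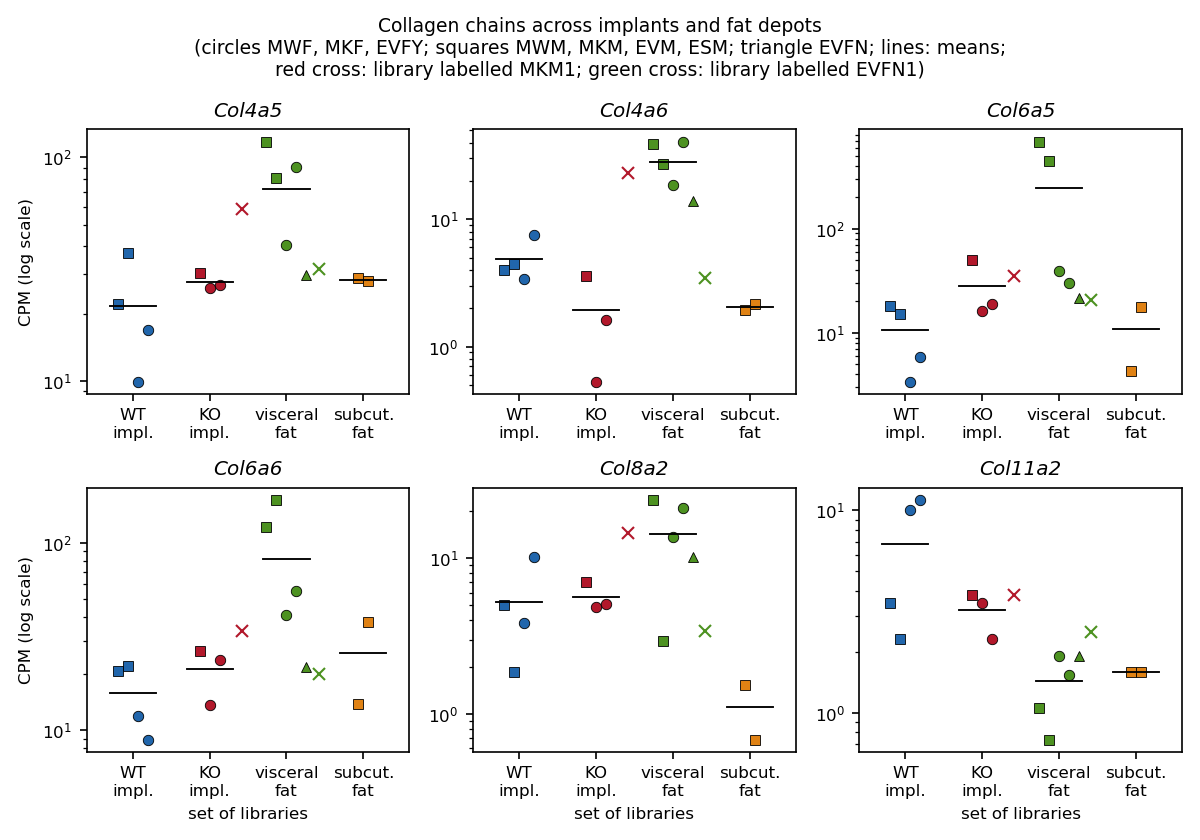
CPM of 6 chains in every library (vertical axes, log scale) by set of libraries (horizontal axes); points are libraries, lines means, and crosses the libraries labelled MKM1 (red) and EVFN1 (green). The 5 visceral points lie above all others for Col4a6 except the red cross, and the EVM squares stand far above the rest for Col6a5.

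Mesothelial markers separated visceral fat from all other sets. Their 6 genes summed to 184 to 499.6 CPM in visceral fat, 15.1 to 39.8 in WT implants, 1.98 to 22.4 in KO implants and 4.50 to 9.98 in subcutaneous fat, where Upk1b was at 0. All 6 were called higher in visceral than in subcutaneous fat. The library labelled MKM1 had 474 CPM of these markers with 22.9 CPM of Col4a6 and 14.5 of Col8a2, and that labelled EVFN1 had 2.49 CPM with 3.48 and 3.42. Col8a2, a network chain of the cornea and vessels, was at 23.7 and 2.95 CPM in EVM, 13.6 and 20.9 in EVFY and 10.2 in EVFN2, at 1.53 and 0.683 CPM in ESM and at 4.98 and 1.86 CPM in MWM, 3.83 and 10.2 in MWF, 6.98 in MKM2 and 4.83 and 5.07 in MKF (visceral minus subcutaneous 2.94 ± 0.72 (SE), adjusted p = 0.135). The part of mesothelium in Col4a6, Col4a5 and Col8a2 was not tested. The summed markers in the EVM libraries (184 and 251 CPM) were the lowest of visceral fat, while their Col6a5 was the highest.

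Few chains separated the fat depots or the implants from subcutaneous fat. Between visceral and subcutaneous fat 2 of 38 chains (5.3%) were called higher, Col4a6 and Col6a5, and none lower, beside 0.568% and 0.629% of all genes (1.2% in either direction; limma). All 11 fibrillar chains had a negative difference and none was called by limma (4 at an unadjusted p under 0.05) or edgeR, with a median of -0.82 where that over all genes was 0.05. Subcutaneous fat had Col3a1 at 4838 and 6125 CPM in ESM, Col1a1 at 2192 and 2702 CPM in ESM and Col1a2 at 2970.1 and 3573 CPM in ESM, inside the range of visceral fat for Col1a1, Col1a2 and Col3a1. With 2 libraries on the subcutaneous side, of which ESM2 had 15718 CPM of skeletal muscle and 106 CPM of keratinocyte markers and ESM1 97.1 and 3.18 CPM, the precision is low. Both ESM libraries came from males with surgery (Xist 0.454 and 0.057 CPM). On the visceral side EVFY and EVFN2 had Xist at 273 to 644 CPM, EVFN was without surgery, and EVFN2 alone stood for its code. Depot, sex-linked reads and surgery therefore cannot be told apart in this comparison.

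WT implants had 2 chains higher than subcutaneous fat and none lower (8.54% and 1.82% of all genes; 10.4% in either direction). Col11a2 was at 1.59 and 1.59 CPM in ESM (1.55 ± 0.24 (SE), adjusted p = 0.00656; limma), below all WT implants. The call was lost for Col11a2 without ESM1 (adjusted p up to 0.0583). Col6a4, a type VI chain, was at 0 and 0.228 CPM in ESM against 1.88 and 1.13 CPM in MWM, 27.2 and 23.2 in MWF, 4.02 in MKM2 and 4.11 and 3.18 in MKF (3.56 ± 0.95 (SE), adjusted p = 0.0483). The difference was 5.11 with a pseudocount of 0.1 and 2.20 with one of 2. The call was lost for Col6a4 without any 1 of 10 libraries (all of the 14 but EVFN2, EVFY1, EVFY2 and MKM2; adjusted p up to 0.233). It was also lost with all 16 libraries (1 chain and 2.47% of all genes called), with a pseudocount of 2, with no filter and with edgeR (1 chain and 6.57%). KO implants had 1 chain called, Col6a5 (1.71 ± 0.50 (SE), adjusted p = 0.0456), and none lower (13.4% and 4.87% of all genes; 18.2% in either direction). That call was lost for Col6a5 without any 1 of 12 libraries (all of the 14 but ESM2 and EVFN2; adjusted p up to 0.275). Neither edgeR nor median-of-ratios scaling called it higher. Both instead called 1 chain lower (16.9% of all genes in edgeR; with all 16 libraries no chain and 0.273% of all genes), Col13a1, a transmembrane chain of muscle and nerve endings, at 7.71 and 5.01 CPM in ESM against 1.07 CPM in MKM2 and 0.676 and 0.730 in MKF (limma adjusted p = 0.0503). Macrophage markers were higher in KO implants than in subcutaneous fat in 5 of 6 genes, with sums of 646 to 842 CPM in the latter. Adipocyte markers were lower in 3 of 8, with sums of 17788 to 31133 CPM in subcutaneous fat. The part of these cells was not tested.

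Against subcutaneous fat, 13.4% of all genes were higher and 4.87% lower in KO implants, and 8.54% and 1.82% in WT implants. Between visceral and subcutaneous fat the shares were 0.568% and 0.629%. Around the chains, log2 differences of KO implants minus subcutaneous fat that passed were, for modification genes, 3 higher (Colgalt1 1.27, Plod1 0.79, P3h1 0.61) and 1 lower (P4ha2 -0.63) of 20. These counts of modification genes were near the shares over all genes. Degradation genes had 3 higher (Ctsk 1.70, Mmp13 1.32 and the inhibitor Timp1 2.31) and 2 lower (Mmp9 -3.23 and the inhibitor Timp3 -1.11) of 10. Mmp13 was at most 0.228 CPM in subcutaneous fat and met the filter through the KO implants. Fibril partners had 4 higher (Comp 3.41, Fmod 1.83, Bgn 1.6001, Postn 2.04) and 0 lower of 10. Basement membrane partners had 0 higher and 3 lower (Lamb2 -1.002, Lama4 -0.90, Lama2 -0.70) of 10. For WT implants minus subcutaneous fat the counts were 0 higher and 4 lower of 10 degradation genes (Mmp9 -1.59, Mmp2 -1.11, and the inhibitors Timp2 -1.16 and Timp3 -1.05). They were 0 higher and 1 lower (Loxl2 -1.13) of 5 crosslinking genes and 1 higher (Comp 2.03) and 0 lower of 10 fibril partners. They were 0 higher and 6 lower (led by Lama2 -1.65, Lamb1 -0.80, Lama4 -0.85) of 10 basement membrane partners. Receptors had 1 higher (Lair1 3.76) and 1 lower (Ddr2 -0.76) of 10 for KO implants and 0 higher and 1 lower (Ddr2 -1.004) of 10 for WT implants. Propeptide cleavage had 1 higher (Adamts14 1.39) and 1 lower (Pcolce2 -2.25) of 7 for KO implants. Between visceral and subcutaneous fat, propeptide cleavage had 1 higher (Adamts3 2.10) and 0 lower of 7. Degradation had 0 higher and 1 lower (Mmp2 -1.48) of 10. Comp, which holds fibrils together in cartilage and tendon, was called in both implant comparisons. No modification gene differed between WT implants and subcutaneous fat in limma (3 of 20 at an unadjusted p under 0.05) or edgeR.

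Among WT implants, those coded male and female differed in 4 chains. Col18a1 (1.17 ± 0.21 (SE), adjusted p = 0.00990; limma), Col4a1 (0.86 ± 0.23 (SE), adjusted p = 0.0385) and Col5a2 (0.85 ± 0.24 (SE), adjusted p = 0.0468) were higher in MWM and Col11a2 was lower (-1.74 ± 0.28 (SE), adjusted p = 0.00624). That is 3 of 38 (7.9%) higher and 1 (2.6%) lower, beside 1.45% and 12.2% of all genes (13.7% in either direction). Col18a1 was at 768 and 789 CPM in MWM and 270.2 and 444 in MWF, and Col4a1 at 3751 and 3931 and 1899 and 2356. Under median-of-ratios scaling, which moved the median of all genes by 0.22 here, 8 chains were higher and 1 lower, beside 4.74% and 7.14% of all genes (11.9% in either direction). Calls were lost for Col11a2 without MWM2 (adjusted p up to 0.0635) and Col18a1 without MWM1 or MWM2 (adjusted p up to 0.0796). They were lost for Col4a1 without MKF1, MKF2, MWF1, MWF2, MWM1 or MWM2 (adjusted p up to 0.197) and Col5a2 without any 1 of 10 libraries (all of the 14 but EVFN2, EVFY1, EVFY2 and MKM2; adjusted p up to 0.227). With all 16 libraries only Col11a2 was called (9.26% of all genes), and edgeR called 5 chains (8.87%). In log2 differences of MWM minus MWF, modification genes had 2 higher (Plod1 0.77, Plod3 0.76) and 0 lower of 20, and degradation 1 higher (Ctsk 1.21) and 1 lower (Mmp9 -1.08) of 10. Fibril partners had 1 higher (Sparc 1.19) and 0 lower of 10, and basement membrane partners 1 higher (Lamc1 0.76) and 0 lower of 10.

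Markers of several cell types differed between the same libraries. Adipocyte markers summed to 19250 and 22726 CPM in MWM and 9919 and 13873 CPM in MWF, with 1 of 8 (Lep) called higher in MWM. Macrophage markers summed to 944 and 711 CPM in MWM and 548 and 498 CPM in MWF, with 2 of 6 (Gpnmb and Trem2) called higher in MWM. For lymphocyte markers the order was the opposite. The 8 genes, a list added after their values were seen, summed to 939 and 608 CPM in MWF and 16.9 and 38.3 CPM in MWM, and 182 CPM or less elsewhere. Lung epithelium markers were 453 and 518 CPM in MWF and 271 and 124 CPM in MWM, with 2 of 6 lower in MWM. Both MWM libraries held Xist with little Ddx3y, as given above, so the codes do not stand for sex alone; the part of any of these in the collagen differences was not tested.

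Whether the KO effect differed between the codes for males and females was tested as an interaction. No chain was called by limma (1 higher and 5 lower at an unadjusted p under 0.05) or by edgeR (2 higher and 7 lower). At that unadjusted threshold 14.2% of all genes were higher and 1.74% lower in limma, and the median difference was -0.15 over the 38 chains and 0.25 over all genes. Median-of-ratios scaling moved the median of all genes by -0.25 here, and no chain was called under it. After adjustment no chain was called, beside 0.551% of all genes higher and 0.0111% lower (0.562% in either direction). The smallest p was that of Col11a2, with 3.48 and 2.32 CPM in MWM, 10.1 and 11.3 in MWF, 3.82 in MKM2 and 3.48 and 2.32 in MKF. Its difference of differences was 2.11 ± 0.45 (SE), adjusted p = 0.0744; with all 16 libraries its adjusted p was 0.0378 (1.21% of all genes called). The male KO arm had 1 library (MKM2), which was assumed to vary like the other groups.

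Ratios of partner chains per kilobase of exon were steady for some pairs. Col4a1 to Col4a2, which start head to head with 22 bases of overlap on chromosome 8, ran from 1.14 to 1.69 over the 14 libraries, and Col6a1 to Col6a2 from 1.74 to 2.23. Col1a1 to Col1a2 was 2.06 ± 0.37 in WT and 2.07 ± 0.06 in KO implants, 1.47 ± 0.28 in visceral and 1.41 ± 0.02 in subcutaneous fat (SD). In CPM these chains were nearly equal in implants, with means of 2080 and 1973 in WT and 4130 and 3786 in KO implants. The union of annotated exons was 6563 bases for Col1a1 and 12426 for Col1a2, and 4380 for Col6a1 and 8326 for Col6a2. The size of such a ratio rests on these lengths and does not measure the proportion of chains. Col6a3 to Col6a1 was 0.174 ± 0.0385 in visceral fat, below 0.301 ± 0.0459 in WT implants, 0.305 ± 0.0105 in KO implants and 0.370 ± 0.0637 in subcutaneous fat (SD). Only EVFY2, at 0.240, came near the WT range, which began at 0.256. Col4a5 to Col4a6 was 2.98 ± 0.53 in visceral and 16.5 ± 1.79 in subcutaneous fat, 5.64 ± 3.29 in WT and 29.3 ± 25.7 in KO implants (SD). The WT range, 2.67 to 9.90, overlapped the visceral range, 2.54 to 3.57. In KO implants Col4a6 was as low as 0.531 CPM, so that ratio is imprecise. These ratios were not tested.

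Chains typical of cartilage and skin were scarce. Col2a1, the main fibrillar chain of cartilage, was at most 1.74 CPM (MWM1), and Col10a1 of hypertrophic cartilage at most 1.08 CPM in the same library. Col17a1, a chain of the epidermal hemidesmosome, was at 1.62 and 0.891 CPM in EVM, 1.26 and 2.08 in EVFY, 0.535 in EVFN2 and 0.794 and 10.4 in ESM. It was at 0.846 and 1.30 CPM in MWM, 3.93 and 4.01 in MWF, 1.58 in MKM2 and 0.628 and 0.472 in MKF. ESM2, with the most Col17a1 (10.4 CPM), also had the most keratinocyte marker reads, 106 CPM. Col4a3 and Col4a4, a pair with start sites 71 bases apart that build kidney and lung basement membranes, were at 24.2 and 63.6 CPM in EVM1 and at or below 8.68 and 21.8 CPM in the other 15 libraries.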

How the data were processed

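Libraries were 2 for each of 8 group codes, and a further labelled sample (ESF) was not analysed here. The deposited values are CPM per gene, made by the authors after trimming with cutadapt 2.7, alignment to mm10 with STAR 2.5.4 and counting with featureCounts 1.6.3, per the submitters' processing notes; the strand setting is not given in the sources used here. Whole reads were recovered from the CPM steps in 100% of nonzero values (tolerance 0.001 reads). The libraries labelled MKM1 and EVFN1 were left out of means and tests.

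Log2(CPM + 0.5) was fitted for the 17964 genes that reached 1 CPM in 2 or more of 16 libraries with limma 3.58.1 (trend, robust; R 4.3.3) as 8 group means over 14 libraries with 6 residual degrees of freedom. Sides were equally weighted means of their codes, and p-values were adjusted by Benjamini-Hochberg over all genes (threshold 0.05). The limma step was tested on data simulated for KO against WT implants, with the same dispersion for every gene. The other comparisons and edgeR were not tested in this way. Alternatives were all 16 libraries, pseudocounts of 0.1 and 2, no filter, median-of-ratios scaling, edgeR 4.0.16 quasi-likelihood on the recovered reads, a replicate block, only the compared groups, and each library left out. Leaving out MKM2 or EVFN2 removed its code, so the KO or visceral side was then the mean of the codes left. Depth was 16444965 to 25805502 reads per library.

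The members, the gene and marker lists and the comparisons were chosen with earlier results of these data known. Named chains were a set list of main chains of each class, plus up to 3 per class with the smallest adjusted p past the threshold in a comparison. Of each other list, up to 3 genes and every one of a count of 5 or fewer were named. Chains and lists outside this rule (Col8a2, Col4a3, Col4a4, Col13a1, Serpinh1 and the lymphocyte markers) were named after their values were seen.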

Additional observations from a re-analysis of the deposited data

How the results depend on the processing

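No collagen chain with an unadjusted p under 0.05 in a comparison changed direction there in the alternatives run. Chains above that p could: Col15a1 was 0.24 between KO and WT implants and -0.16 with all 16 libraries, and Col27a1 0.03 and -0.39. With all 16 libraries as labelled, the number of collagen chains called was 0 for KO against WT implants, 0 for KO implants against visceral fat, 1 for WT implants against subcutaneous fat, 0 for KO implants against subcutaneous fat, 1 for visceral against subcutaneous fat, 1 for male against female WT implants and 1 for the KO difference between codes. Called genes of the collagen pathway lists were then 3, 8, 0, 4, 0, 0 and 2 for KO against WT implants, WT and KO implants against visceral fat, WT and KO implants against subcutaneous fat, visceral against subcutaneous fat, and male against female WT implants. With only the compared groups the chains called were 8 for KO against WT implants, 8 for KO implants against visceral fat, 4 for WT and 3 for KO implants against subcutaneous fat, and 1 for visceral against subcutaneous fat. WT implants against subcutaneous fat had 1 with a pseudocount of 2, with no filter and with edgeR. KO implants against subcutaneous fat had 2 with a pseudocount of 0.1, visceral against subcutaneous fat 1 with edgeR, the KO difference 1 with a pseudocount of 2, and male against female WT implants 9 with median-of-ratios scaling.

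Leaving out 1 library at a time gave 0 to 5 chains for KO against WT implants, 7 to 13 for WT and 8 to 15 for KO implants against visceral fat, 1 to 3 for WT and 0 to 5 for KO implants against subcutaneous fat, 1 to 3 for visceral against subcutaneous fat, 0 to 6 for male against female WT implants and 0 to 0 for the KO difference. The KO difference could not be computed without MKM2. The causes of these ranges were not tested. With the replicate block, chains called were 2, 10, 13, 1, 1, 2, 4 and 0 in the order of the 8 comparisons (KO against WT, WT then KO against visceral, WT then KO against subcutaneous, visceral against subcutaneous, male against female, KO difference). Same-numbered libraries deviated together in 7 of 15 pairs (correlations from -0.443 to 0.335), so the numbers were not taken to pair the libraries.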
